A study of Mus musculus with 12 samples.

Results

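Coagulation and complement genes encode plasma proteins that the liver secretes to clot blood and to mark and lyse microbes. A list of 33 such genes was followed on Illumina mouse bead arrays. A gene was represented by its probes whose single annotated symbol, current or former, was on the list, and its brightest probe over all arrays carried the main value. Probes were found for 31 of the 33 genes, 17 of coagulation and 14 of complement, out of 12010 genes with a probe above the signal floor. All 31 genes passed that floor with all of their 56 probes, whereas C3 and Cpb2 were not analysed here.

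The arrays compared whole liver with hepatocytes freshly isolated from liver, each from a mouse labelled IkkβF/F and a mouse labelled IkkβDhep. IkkβF/F mice (FF) carry floxed alleles of Ikbkb, the gene of the NF-κB-activating kinase Ikkβ, and were Cre-negative. IkkβDhep mice (Dhep) were Cre-positive and are described as deleted for Ikkβ, and the sources used here do not give the promoter that drives Cre. All were male C57BL6/J, without further treatment, of an age given as 4 to 6 weeks in the sample labels and as 6 to 8 weeks in the series text. The 4 groups of 3 arrays were FF liver, Dhep liver, FF hepatocytes and Dhep hepatocytes. The series text counts 4 mice and 4 RNA samples, so each group was read as 1 RNA of 1 mouse on 3 arrays, and a p-value below then compares 2 RNA samples and carries no spread between mice.

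In coagulation, zymogens of serine proteases activate each other in sequence, with factor V and factor VIII as cofactors, until thrombin cuts fibrinogen into fibrin, while protein C, protein S and plasmin hold the clot in check. Complement is started by the lectin, classical or alternative route, converges on C3 and C5, and ends in the membrane attack complex of C5b, C6, C7, C8 and C9. Hepatocytes make most of these proteins, and many of their genes belong to the acute phase response of the liver to cytokines.

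Array medians of raw intensity ran from 40.98 to 53.83, and normalized arrays of a group correlated at an r of at least 0.9977 across probes. Ikbkb had mean log2 signals of 7.62 (FF) and 7.47 (Dhep) in liver and of 7.35 (FF) and 7.66 (Dhep) in hepatocytes, which do not check the deletion, since the place of the probe in the gene was not analysed here. Marker lists of other cells differed between the preparations. The linear signal summed over 15 of 15 sinusoidal endothelial markers was 9265 to 9527 (FF) and 10690 to 11080 (Dhep) in liver and 11170 to 11590 (FF) and 5907 to 6106 (Dhep) in hepatocytes, so the FF hepatocyte preparation held no less of this signal than FF liver. For 14 of 14 stellate cell markers the sum was 11930 to 12210, 12230 to 12530, 11270 to 11630 and 5206 to 5373 in the same order. For 16 of 17 listed Kupffer cell markers it was 7046 to 7091, 14990 to 15390, 6630 to 6722 and 22650 to 23150. That sum includes Cd5l, which was at the floor in all groups. For 15 of 15 hepatocyte markers the sum was 245600 to 251500, 236100 to 244600, 242800 to 246100 and 252600 to 255700. It includes the one Fabp1 probe used, which was at the floor.

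The members' signals differed mainly between liver and isolated hepatocytes. On the brightest probes, all 31 genes had a higher mean in FF hepatocytes than in FF liver, and 27 had in Dhep. No member peaked in a liver group: of the coagulation genes 8 had their highest mean in FF hepatocytes and 9 in Dhep hepatocytes, and of the complement genes 8 and 6. FF liver was the lowest group for 11 coagulation and 9 complement genes.

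**Figure D1:**
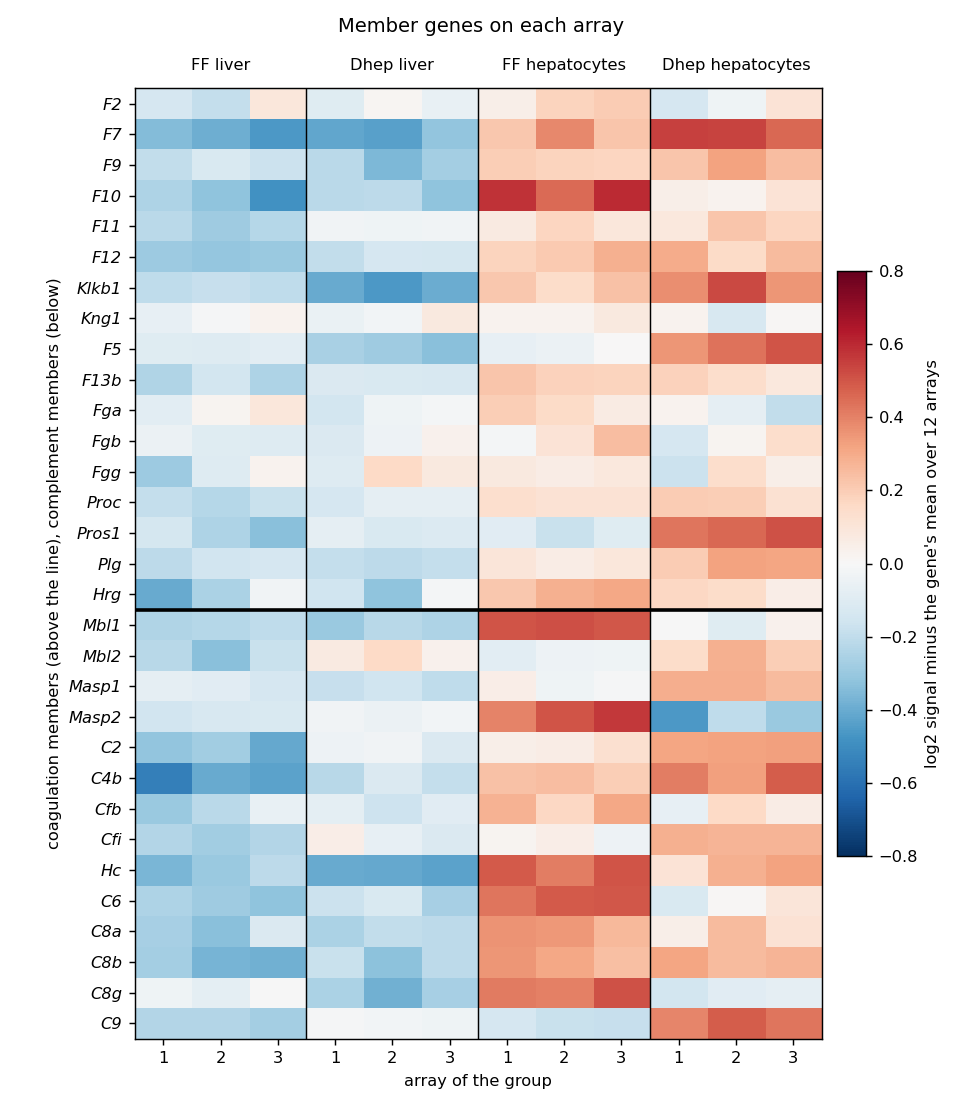
Log2 signal of each member's brightest probe on each of the 12 arrays (columns, 3 per group), minus the gene's mean over the arrays, with coagulation genes above the line and complement genes below. The liver columns are mostly blue and the hepatocyte columns mostly red, and Masp2, F10, Mbl1 and C6 are reddest in FF hepatocytes whereas F5, Pros1 and C9 are reddest in Dhep hepatocytes.

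The first question was how the genes read in isolated hepatocytes against whole liver of the same genotype. In FF the median log2 difference over the 31 genes was 0.40, against -0.03 over all 22859 probes tested. It was 0.32 over coagulation and 0.52 over complement genes. At a limma adjusted p under 0.05, 24 genes were higher and 0 lower, where 20.9% of all probes were higher and 26.9% lower. None of the 31 reached a 2-fold difference as well, a size that 1.25% of all probes reached upward and 0.192% downward.

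In Dhep the median was 0.31, with 0.29 for coagulation, 0.34 for complement and 0.01 over all probes. Here 23 genes were higher and 1 lower, the lower one being Masp2, where 21.4% of all probes were higher and 20.5% lower. Again 0 of 31 reached 2-fold (0.494% of probes upward, 0.472% downward). The arrays of the preparations did not overlap for 27 genes, all higher in hepatocytes, in FF (against 23.3% of probes higher and 30.2% lower) and for 23 higher and 1 lower gene in Dhep (25.8% and 24.4%). The 14 hepatocyte markers measured beside them had medians of -0.03 in FF and 0.01 in Dhep. Of these markers 1 was higher and 4 lower in FF, and 4 were higher and 1 lower in Dhep. The 1 higher in FF was Alb, on a dim probe with a mean log2 signal of 7.99, at 0.53 (limma adjusted p = 0.000408). In Dhep Alb stood at 0.44 (adjusted p = 0.00303). Whether bright marker probes compressed differences was not tested.

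The FF count depended on how the arrays were scaled to each other. With median scaling in place of quantile normalization, the median of all probes moved to -0.15 in FF. There 9 members were called higher and 5 lower, where 7.51% of all probes were higher and 47.9% lower. The member median was 0.05, or 0.20 above that of all probes. Of the 31 genes, 26 stayed above the all-probe median. On their brightest probes, the 9 genes F7, F10, Mbl1, Masp2, C4b, Hc, C6, C8b and C8g were called higher in FF hepatocytes under all 4 scalings run (quantile normalization, median scaling, cyclic loess and the authors' normalized table). Other probes of C4b and Masp2 were called lower in this comparison, with values given beside those genes. In Dhep all 24 calls, 23 higher and 1 lower, held under all 4 scalings. In bulk RNA, more cells of a type and more RNA per cell cannot be told apart.

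**Figure D2:**
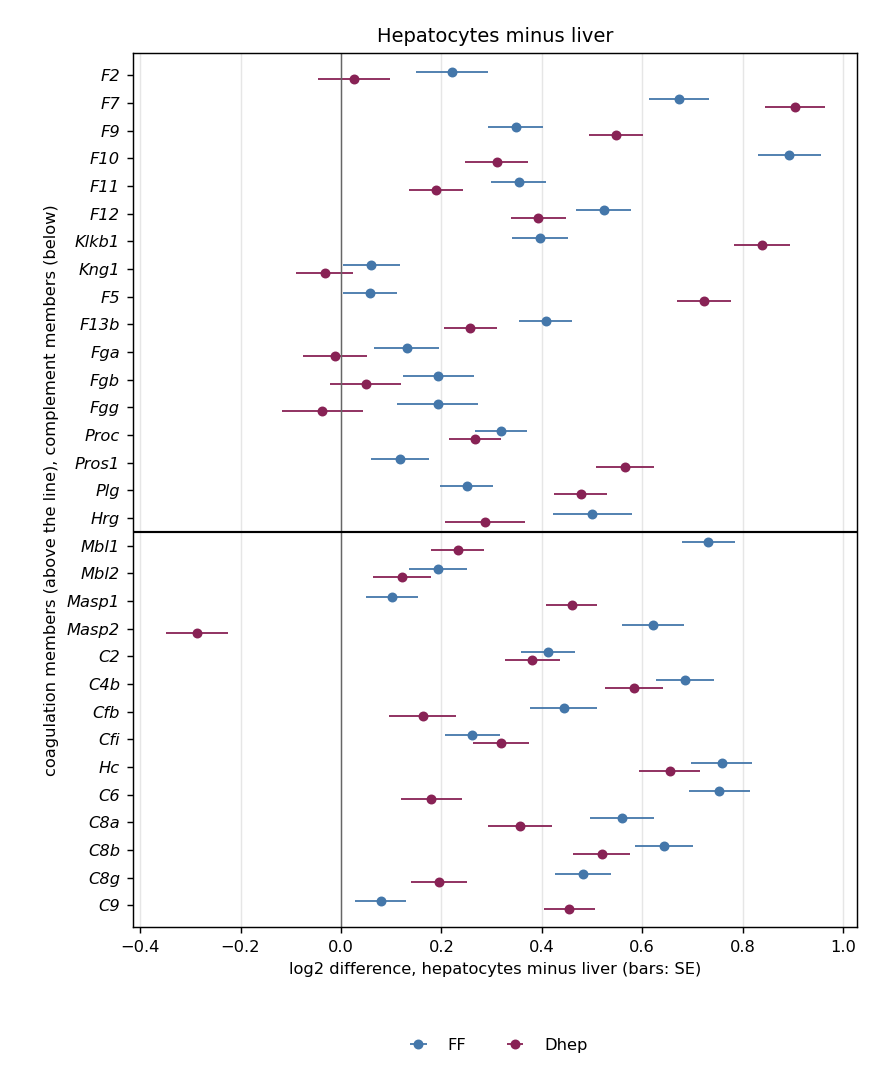
Log2 difference between isolated hepatocytes and liver for each member, FF and Dhep side by side, with limma standard errors from 3 arrays a group. Every FF point lies right of 0, F10 at 0.89 being the farthest, and in Dhep Masp2 at -0.29 lies left while F7 at 0.90 lies farthest right.

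The second question was how Dhep differed from FF within each preparation. In liver the differences were small: 6 members (19.4%) were higher and 3 (9.68%) lower in Dhep. These pooled shares stood near the 13.1% and 14.7% of all probes. Of 14 complement genes 5 were higher (35.7%) and 1 lower (7.14%). Of 17 coagulation genes 1 was higher (5.88%) and 2 lower (11.8%). Over all members the median was 0.08, against -0.02 over all probes. The higher genes were F11, Mbl2, C2, C4b, Cfi and C9, and the lower ones Klkb1, F5 and C8g. None reached 2-fold, a size reached by 0.503% of probes upward and 0.0919% downward. The arrays of FF and Dhep liver did not overlap for 11 higher and 6 lower members (18.5% and 21.9% of probes). Under median scaling 0 members were higher and 8 lower, where 7.23% of all probes were higher and 25.0% lower. Klkb1, F5 and C8g were the 3 called the same way under all 4 scalings.

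In isolated hepatocytes the members split. There 11 were higher and 9 lower in Dhep, against 27.7% and 26.2% of all probes, and the shares of 35.5% and 29% were again close to the background. The median was -0.02 over members and 0.00 over all probes, and 0 of 31 reached 2-fold (1.22% of probes upward, 1.24% downward). Arrays did not overlap for 12 higher and 10 lower members (30.1% and 28.6% of probes). Higher were F7, Klkb1, F5, Pros1, Plg, Mbl2, Masp1, C2, C4b, Cfi and C9. Lower were F10, Fga, Mbl1, Masp2, Cfb, Hc, C6, C8a and C8g. Of these, 10 higher and 5 lower calls held under all 4 scalings, and C4b, Fga, Cfb, Hc and C8a did not.

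By the interaction term, the genotype difference changed with the preparation for 14 of the 31 genes. Of the members, 8 (25.8%) were relatively higher in Dhep hepatocytes and 6 (19.4%) relatively lower. These pooled shares too stood near the 23.9% and 21.2% of all probes. Of 17 coagulation genes 6 were higher (35.3%) and 1 lower (5.88%), and of 14 complement genes 2 (14.3%) and 5 (35.7%). No member passed at 2-fold (0.748% and 1.78% of probes). The split by part depended on the scaling. With cyclic loess 3 coagulation genes were higher and 6 lower, where 19.5% and 24.3% of all probes passed. With the authors' normalized table the counts were 5 and 4 (22.0% and 22.6% of all probes). Complement stood at 2 higher and 6 lower in both. Median scaling gave 20 higher and 1 lower, 11 and 0 for coagulation and 9 and 1 for complement. There 49.2% and 6.46% of all probes passed, and the median of all probes moved to 0.23. The downward calls of F10 (-0.21, adjusted p = 0.109), C6 (-0.059, adjusted p = 0.664) and Mbl1 (-0.014, adjusted p = 0.921) were lost there, and Cfb and C8g changed sign. Klkb1, F5, Pros1, Masp1 and C9 upward and Masp2 downward were called under all 4 scalings, and F7, F9 and Plg upward were not. In Dhep hepatocytes the endothelial and stellate marker sums were also low and the Kupffer sum high, as given above, and their part in these results was not tested.

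**Figure D3:**
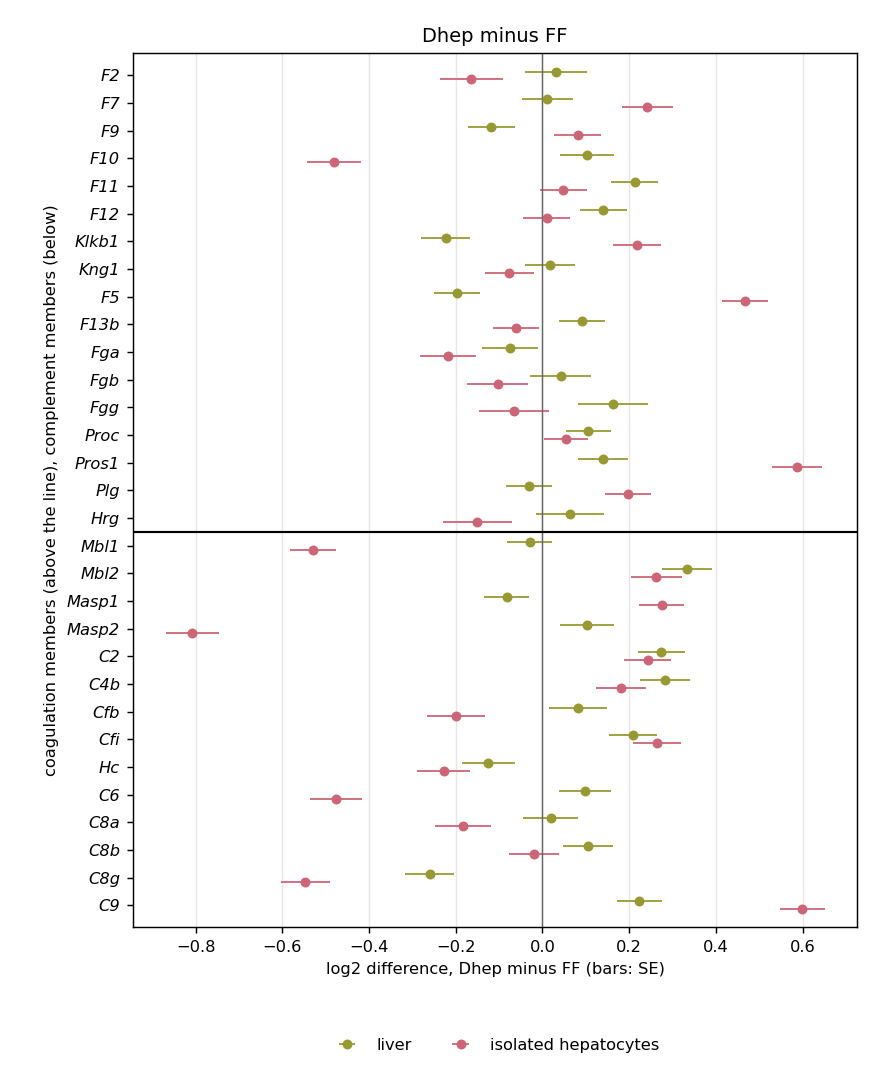
Log2 difference between Dhep and FF for each member in liver and in isolated hepatocytes, with limma standard errors from 3 arrays a group. Liver points lie between -0.26 and 0.33, while hepatocyte points spread from -0.81 for Masp2 to 0.60 for C9.

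The 4 vitamin K-dependent zymogens F2, F7, F9 and F10, which encode prothrombin and factors VII, IX and X, were all higher in FF hepatocytes than in FF liver. F10 read 12.71, 12.64 and 12.47 log2 units on the liver arrays of FF, 12.74, 12.75 and 12.64 on those of Dhep, and in hepatocytes 13.53, 13.41 and 13.56 for FF and 13.003, 12.99 and 13.07 for Dhep. Its FF hepatocyte arrays lay above all the others, and its Dhep hepatocyte arrays lay between those and both livers. F10 was 1.86-fold higher in FF hepatocytes than in FF liver (log2 difference 0.89 ± 0.06, SE, limma adjusted p = 3.40e-11). Between the hepatocyte groups F10 was lower in Dhep (-0.48 ± 0.06, adjusted p = 6.23e-07), and in liver it did not pass (0.10 ± 0.06, adjusted p = 0.247).

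F7, whose product starts clotting together with tissue factor, went the other way between the genotypes. Its values were 10.11, 10.06 and 9.99 in liver for FF and 10.04, 10.02 and 10.14 for Dhep, and 10.67, 10.84 and 10.67 in hepatocytes for FF and 11.00, 10.99 and 10.91 for Dhep. The livers overlapped, both hepatocyte groups lay above them, and Dhep hepatocytes lay highest. F7 was 1.60-fold higher in hepatocytes in FF and 1.87-fold in Dhep, and 0.24 ± 0.06 higher in Dhep than in FF hepatocytes (adjusted p = 0.00129). F7 and F10 are next to each other in RefSeq on GRCm38.p6, at chr8:13025506-13035809 and chr8:13037308-13056676. F9 was higher in hepatocytes in both genotypes (0.35 and 0.55) and F2 in FF alone at this threshold (0.22 in FF, or -0.092 under median scaling, and 0.03 with adjusted p = 0.812 in Dhep), a contrast between genotypes that did not pass for F2 (interaction -0.20, adjusted p = 0.126).

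The contact system comprises F11, F12, Klkb1, the gene of plasma prekallikrein, and Kng1, that of kininogen. Klkb1 read 11.46, 11.48 and 11.46 in the liver of FF and 11.26, 11.21 and 11.27 in that of Dhep, then 11.89, 11.82 and 11.90 in hepatocytes of FF and 12.04, 12.20 and 12.02 in those of Dhep. No pair of groups overlapped, and Dhep was the lower genotype in liver and the higher in hepatocytes. The genotype difference was -0.22 ± 0.06 in liver (adjusted p = 0.00425) and 0.22 ± 0.06 in hepatocytes (adjusted p = 0.00199), and the interaction was 0.44 ± 0.08 (adjusted p = 6.89e-05). A second Klkb1 probe gave -0.25 and 0.09.

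F11, the gene beside Klkb1 on chromosome 8, was higher in Dhep liver (0.21 ± 0.05, adjusted p = 0.00479), but under median scaling its liver difference was -0.018. Its dimmer probes ILMN_2609762 and ILMN_1236044 gave 0.23 and 0.63 in liver. In hepatocytes F11 differed by 0.05 (adjusted p = 0.477). F12, which encodes the Hageman factor, did not pass for genotype on its brightest probe (0.14 in liver, 0.01 in hepatocytes) and was higher in hepatocytes in both genotypes (0.52 and 0.39). In liver its probe ILMN_2605656 was higher in Dhep (0.42, limma adjusted p = 1.11e-05), and ILMN_2938668 gave 0.07. Kng1 passed in no comparison on its brightest probe, with differences from -0.08 to 0.06 between groups. Its mean raw intensity of 39419 lay within the range of the array maxima, 37222.8 to 52134.4, where a bead array can compress differences. A dimmer Kng1 probe (ILMN_2788221) differed by 0.50 between FF hepatocytes and FF liver and by -0.29 between the hepatocyte groups, and for isolation in Dhep ILMN_1225218 gave 0.60. Kng2 is a near-identical copy, so Kng1 signals may be shared.

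Factor V, fibrin cross-linking factor XIII and fibrinogen formed the group with the smallest isolation medians, 0.19 in FF and 0.05 in Dhep. The Dhep median is the value of Fgb, whose single probe lies close to the floor. F5, whose product is the cofactor of factor Xa, had the largest isolation difference of this group in Dhep (0.72). It read 11.91, 11.91 and 11.93 in liver for FF and 11.75, 11.73 and 11.68 for Dhep, and 11.95, 11.96 and 12.02 in hepatocytes for FF and 12.37, 12.45 and 12.52 for Dhep. The Dhep arrays were lowest of all in liver and highest of all in hepatocytes. The F5 genotype difference was -0.20 ± 0.05 in liver (adjusted p = 0.00806) and 0.47 ± 0.05 in hepatocytes (adjusted p = 8.54e-08), and its interaction of 0.66 ± 0.08 was the largest upward among the members (adjusted p = 1.56e-07). Its dimmer probe (ILMN_1222970) gave -0.38 in liver and 0.07 in hepatocytes, where it did not pass.

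The fibrinogen genes Fgg, Fga and Fgb, which lie in this order side by side on chromosome 3, encode the γ, α and β chains. Fga was lower in Dhep hepatocytes (-0.22 ± 0.06, adjusted p = 0.00613) and did not pass for isolation on its brightest probe. It too was near the top of the scale, with a mean raw intensity of 34094, and its second probe (ILMN_1232567) differed by 0.00 between the hepatocyte groups and was higher in hepatocytes (0.16 in FF, 0.18 in Dhep). Fgg passed in none of the comparisons. Fgb was measured by a single probe at 6.17 to 6.36, close to the floor of 6.06, and its difference of 0.19 in FF (adjusted p = 0.0258) rests on that dim signal. F13b, the carrier subunit of factor XIII, was higher in hepatocytes in both genotypes (0.41 and 0.26) and did not pass for genotype, though a second probe was lower in Dhep hepatocytes (-0.14, adjusted p = 0.0272).

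Among the genes that restrain or dissolve clots, Pros1, encoding the protein C cofactor protein S, had the largest genotype difference. It read 10.66, 10.55 and 10.46 in the liver of FF and 10.72, 10.68 and 10.69 in that of Dhep, then 10.71, 10.62 and 10.70 in hepatocytes of FF and 11.22, 11.26 and 11.31 in those of Dhep. The first 3 groups stood close together, and all Dhep hepatocyte arrays were above them. In hepatocytes Pros1 was 1.503-fold higher in Dhep (0.59 ± 0.06, adjusted p = 5.49e-09), whereas in liver the difference was 0.14 ± 0.06 (adjusted p = 0.0740). The interaction was 0.45 ± 0.08 (adjusted p = 7.34e-05). Proc, the gene of protein C, which Pros1's product assists, did not pass for genotype on its brightest probe (0.11 in liver, 0.05 in hepatocytes). Its other probe (ILMN_3109675) was higher in Dhep liver (0.19, adjusted p = 0.0207) and in Dhep hepatocytes (0.41, adjusted p = 4.04e-06).

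Plg, the gene of plasminogen, was 0.20 ± 0.05 higher in Dhep hepatocytes (adjusted p = 0.00294), with a liver difference of -0.03. In liver the Plg probe ILMN_2589024 was higher in Dhep (0.54, adjusted p = 1.03e-07), and in FF it was lower in hepatocytes than in liver (-0.18, adjusted p = 0.0115), against 0.25 on the brightest. Hrg, which encodes a histidine-rich plasma glycoprotein that binds plasminogen and heparin, did not pass for genotype on its brightest probe, but its other probe (ILMN_2656185) was higher in Dhep liver (0.29, adjusted p = 0.00618). On their brightest probes Proc, Plg and Hrg were higher in hepatocytes in both genotypes, by 0.25 to 0.50 in FF and by 0.27 to 0.48 in Dhep. Pros1 passed for isolation in Dhep (0.57) and stood at 0.12 in FF (adjusted p = 0.0966).

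The lectin route held the largest drop. Masp2 encodes the protease that cleaves C4 and C2 once mannose-binding lectin has bound its sugar. It read 12.04, 12.06 and 12.07 in liver for FF and 12.16, 12.14 and 12.17 for Dhep, and 12.59, 12.69 and 12.76 in hepatocytes for FF and 11.73, 11.99 and 11.90 for Dhep. FF hepatocytes were the highest group and Dhep hepatocytes the lowest, without overlap. In hepatocytes Masp2 was 1.75-fold lower in Dhep (-0.81 ± 0.06, adjusted p = 9.92e-11), against 0.10 ± 0.06 in liver (adjusted p = 0.243), with an interaction of -0.91 ± 0.09 (adjusted p = 1.09e-08). Its 4 probes disagreed: ILMN_3101073 gave -0.55 in the same comparison, but ILMN_1260242 gave 0.18 and ILMN_3027989 gave 0.60. For isolation in FF, ILMN_3027989 was lower in hepatocytes (-0.31, adjusted p = 0.000181), against 0.62 on the brightest, and in Dhep ILMN_1260242 was higher (0.27), against -0.29. In liver ILMN_3101073 and ILMN_3027989 were higher in Dhep (0.27 and 0.29).

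Mbl1 and Mbl2 encode the mouse mannose-binding lectins A and C, which recognise microbial sugars. Mbl1 read 11.49, 11.50 and 11.52 in the liver of FF and 11.43, 11.51 and 11.48 in that of Dhep, then 12.23, 12.25 and 12.22 in hepatocytes of FF and 11.72, 11.63 and 11.76 in those of Dhep. The livers overlapped, and FF hepatocytes were well above Dhep hepatocytes. Mbl1 was 1.44-fold lower in Dhep hepatocytes (-0.53 ± 0.05, adjusted p = 8.22e-09). It differed by -0.03 ± 0.05 in liver (adjusted p = 0.732).

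Mbl2, by contrast, was higher in Dhep in both preparations. It read 11.86, 11.75 and 11.90 in liver for FF and 12.16, 12.24 and 12.12 for Dhep, and 12.00, 12.04 and 12.05 in hepatocytes for FF and 12.23, 12.37 and 12.28 for Dhep. In each preparation every Dhep array was above every FF array. The difference was 0.33 ± 0.06 in liver, the largest upward among the members there (adjusted p = 0.000117), and 0.26 ± 0.06 in hepatocytes (adjusted p = 0.000463). The liver call did not hold under median scaling.

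Masp1, a protease of the same complexes, was higher in Dhep hepatocytes on its brightest probe (0.28 ± 0.05, adjusted p = 7.42e-05) and stood at -0.89 on another (ILMN_1250116, annotated to AK031598). The mean over its 3 probes was -0.26, so the direction for the gene rests on the probe taken. C2 and C4b encode the parts of the C3 convertase made by the lectin and classical routes. C2 was higher in Dhep liver (0.27 ± 0.05, adjusted p = 0.000461) and in Dhep hepatocytes (0.24 ± 0.05, adjusted p = 0.000506). The C2 gene adjoins Cfb on chromosome 17.

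C4b read 12.44, 12.58 and 12.56 in the liver of FF and 12.77, 12.87 and 12.80 in that of Dhep, then 13.22, 13.24 and 13.18 in hepatocytes of FF and 13.40, 13.32 and 13.47 in those of Dhep. The groups followed one another in this order with no overlap. Its genotype difference was 0.28 ± 0.06 in liver (adjusted p = 0.000632) and 0.18 ± 0.06 in hepatocytes (adjusted p = 0.00988). The dimmer C4b probes ILMN_2632567 and ILMN_2632563 gave 1.91 and 1.86 in hepatocytes, with means of 8.89 and 8.40 for FF and 10.80 and 10.26 for Dhep. In FF both were lower in hepatocytes than in liver (-0.53, adjusted p = 4.93e-07, and -0.64, adjusted p = 1.18e-08), against 0.69 on the brightest probe. C4a is a near-identical copy of C4b, so which of the genes each probe reads is uncertain.

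Of the alternative route, Cfb, the gene of factor B, was lower in Dhep hepatocytes (-0.20 ± 0.07, adjusted p = 0.0147) and stood at 0.08 in liver (adjusted p = 0.405). Under median scaling its hepatocyte difference was 0.034. Cfi encodes factor I, the protease that inactivates C3b and C4b, and was higher in Dhep hepatocytes (0.26 ± 0.06, adjusted p = 0.000258). Cfi read 13.34, 13.29 and 13.34 in liver for FF and 13.62, 13.50 and 13.46 for Dhep, and 13.59, 13.62 and 13.53 in hepatocytes for FF and 13.85, 13.84 and 13.84 for Dhep. Dhep arrays were above FF arrays in both preparations, and Dhep liver overlapped FF hepatocytes. Its liver difference of 0.21 ± 0.06 (adjusted p = 0.00637) was -0.019 under median scaling.

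The terminal complement genes had the largest isolation median of any role in FF, 0.60, and all 6 were higher in hepatocytes in Dhep, with a median of 0.41. Between the hepatocyte groups 4 of the 6 were lower in Dhep, 1 was higher, and C8b did not pass, where 26.2% of all probes were lower and 27.7% higher. Of the 4, Hc and C8a changed sign under median scaling. C6, a subunit of the membrane attack complex, read 11.34, 11.30 and 11.27 in the liver of FF and 11.42, 11.47 and 11.32 in that of Dhep, then 12.01, 12.08 and 12.09 in hepatocytes of FF and 11.47, 11.60 and 11.69 in those of Dhep. FF hepatocytes were above all others, and the lowest Dhep hepatocyte array fell within the range of Dhep liver. C6 was 1.39-fold lower in Dhep hepatocytes (-0.48 ± 0.06, adjusted p = 3.62e-07), though its other probe (ILMN_1216720) gave 0.09, and 0.26 in liver (adjusted p = 0.00141).

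C9, which forms the pore's polymer, took the opposite course to C6 between the hepatocyte groups on the brightest probes. It read 13.53, 13.53 and 13.50 in liver for FF and 13.76, 13.74 and 13.73 for Dhep, and 13.63, 13.59 and 13.58 in hepatocytes for FF and 14.16, 14.25 and 14.19 for Dhep. Dhep was above FF in both preparations and FF hepatocytes were below Dhep liver. C9 was 1.52-fold higher in Dhep hepatocytes (0.60 ± 0.05, adjusted p = 5.90e-10) and 0.22 ± 0.05 higher in Dhep liver (adjusted p = 0.00191). A dimmer C9 probe (ILMN_2594846) gave 0.64 in hepatocytes, and ILMN_2937379 gave -0.0055. For isolation in FF C9 stood at 0.08 (adjusted p = 0.217), and ILMN_2937379 at 0.48.

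C8g encodes the γ chain of C8, a lipocalin, and C8a and C8b encode its α and β chains. C8g read 14.06, 14.02 and 14.09 in the liver of FF and 13.85, 13.71 and 13.83 in that of Dhep, then 14.51, 14.50 and 14.61 in hepatocytes of FF and 13.95, 14.01 and 14.02 in those of Dhep. It was lower in Dhep in both preparations, and Dhep hepatocytes lay slightly below FF liver, with overlapping arrays. The difference was -0.26 ± 0.06 in liver (adjusted p = 0.00105) and -0.55 ± 0.06 in hepatocytes (adjusted p = 1.19e-08).

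C8a and C8b are neighbours on chromosome 4 and had like isolation differences, 0.56 and 0.64 in FF and 0.36 and 0.52 in Dhep. For genotype in hepatocytes C8a stood at -0.18 (adjusted p = 0.0180, and 0.12 under median scaling) and C8b at -0.02 (adjusted p = 0.804), and the difference between C8a and C8b was not tested. Hc, the mouse gene of C5, was higher in hepatocytes in FF (0.76) and in Dhep (0.65). Its hepatocyte genotype difference of -0.23 (adjusted p = 0.00286) was 0.0084 under median scaling.

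**Figure D4:**
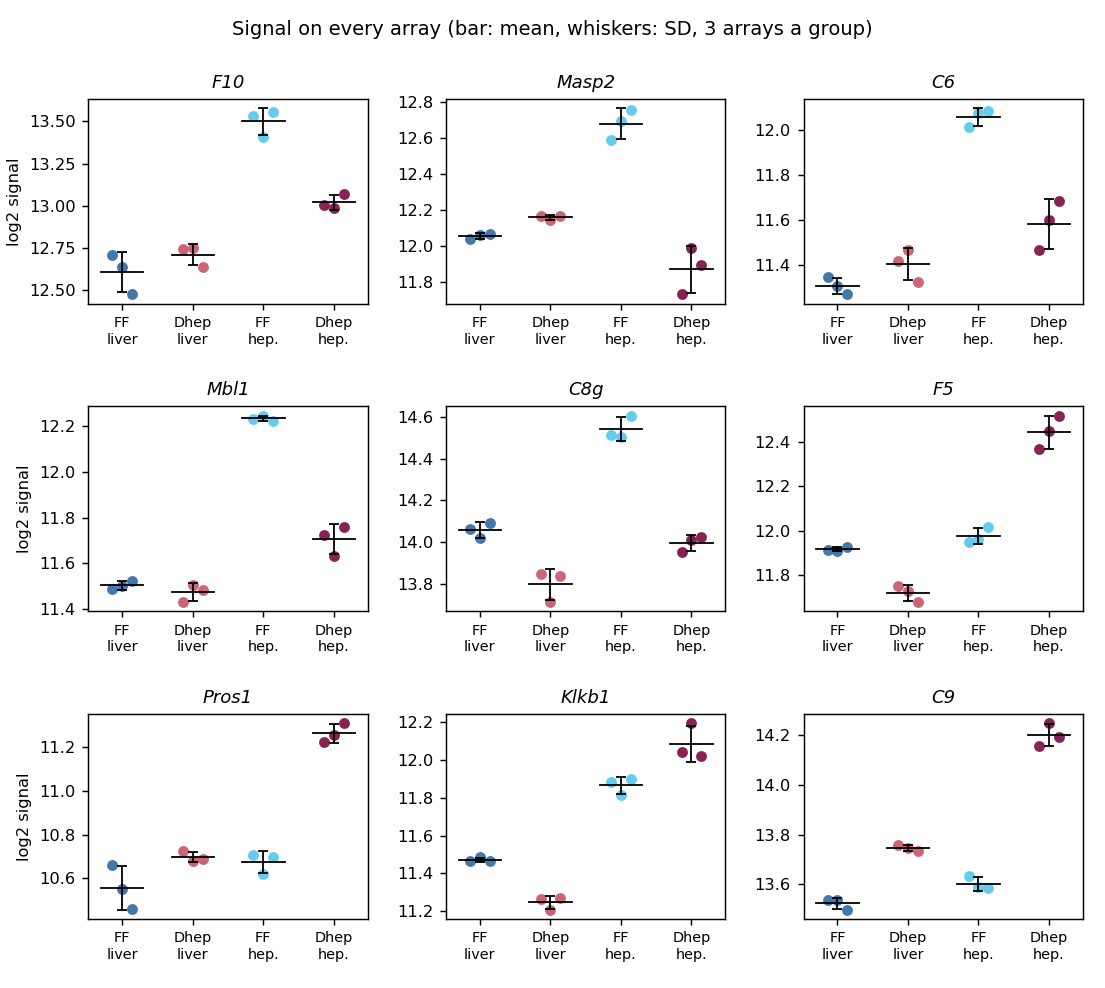
Log2 signal of 9 members on every array, with the group mean (bar) and SD (whiskers) over 3 arrays, each panel on its own axis that does not start at 0. The top row and Mbl1 and C8g show FF hepatocytes highest, while F5, Pros1, Klkb1 and C9 show Dhep hepatocytes highest.

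The promoters of terminal complement genes are shown because this role had the largest isolation median in FF and its members differed in the direction of the genotype difference, although C9 itself did not pass for isolation in FF. RefSeq windows of 300 bases on GRCm38.p6, from 250 before to 50 after the annotated start, were matched for 23 members, with 24 windows. Capitals mark the HNF1 half-site GTTAAT (a core of sites for hepatocyte nuclear factor 1), the C/EBP pattern TTGCNNAA (of the liver-enriched CCAAT/enhancer-binding proteins), the GAS pattern TTCNNNGAA (bound by STAT dimers) or TATAAA, on either strand. In FF the isolation differences were 0.56 for C8a, 0.64 for C8b, 0.76 for Hc, 0.75 for C6 and 0.48 for C8g. Between the hepatocyte genotypes C6 and C9 moved apart on their brightest probes, and other probes gave 0.09 for C6 and -0.0055 for C9.
C8a, chr4:104876349-104876648, minus strand: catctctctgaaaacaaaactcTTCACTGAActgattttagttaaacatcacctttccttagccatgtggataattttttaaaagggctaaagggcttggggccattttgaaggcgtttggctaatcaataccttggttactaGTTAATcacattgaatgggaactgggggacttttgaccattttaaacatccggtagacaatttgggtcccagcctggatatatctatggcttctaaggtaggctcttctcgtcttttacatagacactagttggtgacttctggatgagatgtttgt
C8b, chr4:104766067-104766366, plus strand: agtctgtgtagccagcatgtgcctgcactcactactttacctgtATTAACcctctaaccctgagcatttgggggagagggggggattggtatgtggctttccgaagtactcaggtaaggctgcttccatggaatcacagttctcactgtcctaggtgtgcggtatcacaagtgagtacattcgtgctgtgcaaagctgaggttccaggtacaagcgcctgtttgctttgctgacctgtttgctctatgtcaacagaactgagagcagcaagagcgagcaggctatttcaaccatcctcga
Hc, chr2:35061363-35061662, minus strand: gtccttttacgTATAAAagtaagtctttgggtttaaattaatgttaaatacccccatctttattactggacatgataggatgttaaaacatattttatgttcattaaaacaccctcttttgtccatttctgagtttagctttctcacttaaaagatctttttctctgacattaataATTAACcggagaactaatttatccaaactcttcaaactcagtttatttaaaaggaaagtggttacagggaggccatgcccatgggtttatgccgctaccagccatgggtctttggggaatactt
C6, chr15:4726960-4727259, plus strand: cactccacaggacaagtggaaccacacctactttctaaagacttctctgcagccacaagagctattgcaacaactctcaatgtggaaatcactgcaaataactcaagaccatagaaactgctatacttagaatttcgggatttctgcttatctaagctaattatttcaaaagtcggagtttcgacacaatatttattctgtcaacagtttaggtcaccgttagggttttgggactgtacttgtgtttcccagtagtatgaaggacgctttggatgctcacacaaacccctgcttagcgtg
C9, chr15:6445096-6445395, plus strand: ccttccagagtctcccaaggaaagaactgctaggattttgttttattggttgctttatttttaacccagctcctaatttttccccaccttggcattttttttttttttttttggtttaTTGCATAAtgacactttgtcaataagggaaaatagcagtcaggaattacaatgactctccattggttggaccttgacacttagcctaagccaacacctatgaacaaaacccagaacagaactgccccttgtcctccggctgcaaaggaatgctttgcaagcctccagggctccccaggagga
C8a, C8b and Hc each hold an HNF1 half-site, C9 a C/EBP match, and C6 none of the 5 patterns searched. The 2 windows of C8g, not printed, hold none either, which says only that these letters are not in those windows.

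Over all members the HNF1 half-site was in 7 of 24 windows (29.2%), those of C8a, C8b, F13b, F2, Fga, Fgb and Hc, against 7.1% of 32851 mouse windows of the same length. The C/EBP pattern was in 7 (29.2%, against 10.8%) and the GAS pattern in 6 (25%, against 8.3%). The interferon response core GAAANNGAA was in 0 of 24, against 8.56%, and TATAAA in 3 (12.5%, against 13.6%). Fga and Fgb hold the HNF1, C/EBP and GAS patterns together. A match describes the letters and was not tested as a binding site. Genes named as having no window here are Plg, Proc, Kng1, C2, C4b, Cfb, Cfi and Masp1.

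Probes of 1 gene often disagreed on the genotype difference in hepatocytes. Of 25 further probes for members, 12 (48%) differed from the gene's brightest probe by more than 0.5 in log2, compared with 15.7% of 7212 such probes over all genes. In liver it was 1 of 25 (4%, against 3.05%). Plg probes ranged from -0.80 (ILMN_2561360) to 1.12 (ILMN_2589024), around 0.20 on the brightest. The brightest F12 probe gave 0.01 and ILMN_2605656 gave 0.92, and for F11 ILMN_1236044 gave 0.60, as ILMN_1225218 gave 0.61 for Kng1. Over all 56 probes, 3 were called at 2-fold in this comparison, the dim pair of C4b and 1 of Plg. The other probes were of the opposite sign to the brightest in 3 of 25 cases for genotype in liver, 11 in hepatocytes, 6 for isolation in FF, 7 in Dhep and 14 for the interaction. Both probes were called, in opposite directions, for Plg, Masp1 and Masp2 between hepatocyte groups, for Plg, Masp2 and C4b in FF isolation, for Masp1 and Masp2 in Dhep isolation, and for the same 3 as between hepatocyte groups in the interaction. A second F12 probe (ILMN_2938668) gave 0.31 between hepatocyte groups, Plg ILMN_2593515 gave 0.06, F11 ILMN_2609762 gave -0.0047 and Masp1 ILMN_1250760 gave -0.18. In the Dhep isolation comparison 1 C4b probe was higher and 1 Masp1 probe lower at 2-fold.

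**Figure D5:**
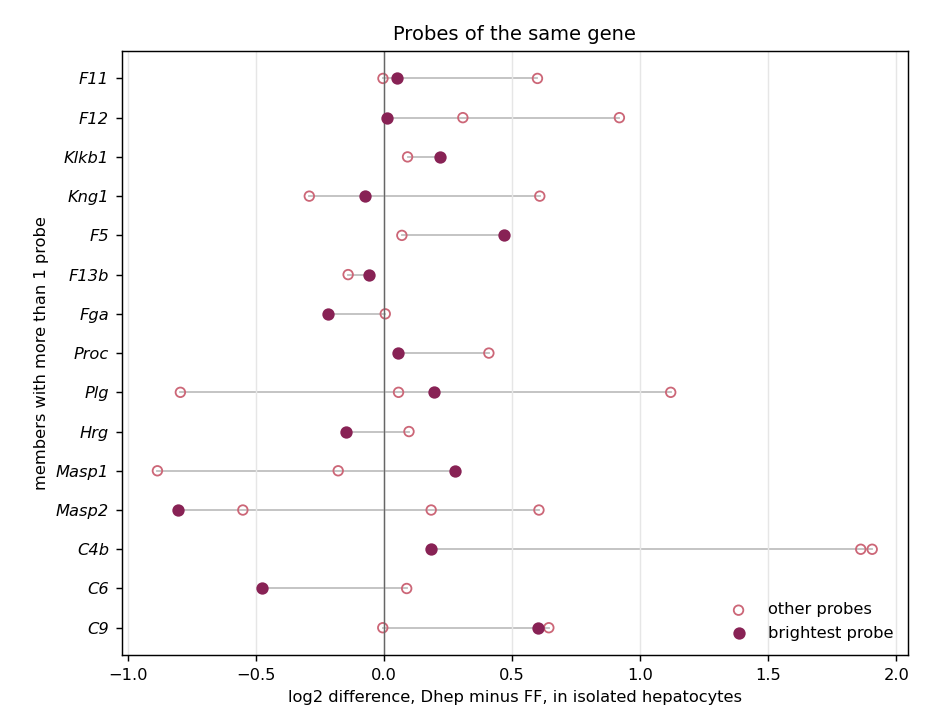
Log2 genotype difference in isolated hepatocytes (Dhep minus FF) for every probe of the 15 members that have more than 1, the brightest filled and the others open. The open points of C4b lie at 1.91 and 1.86, far from its filled point, and Plg, Masp1 and Masp2 have probes on both sides of 0.

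Other genes of both systems were followed as lists. Of 24 measured other coagulation and fibrinolysis genes, 14 were higher and 2 lower in FF hepatocytes than in FF liver, with a median of 0.22. Of all probes 20.9% were higher and 26.9% lower there. In Dhep hepatocytes against FF hepatocytes 4 were higher and 12 lower (27.7% and 26.2% of all probes), with a median of -0.08. Anxa2, whose product binds plasminogen on cell surfaces, was lower by 1.08 on the log2 scale in that comparison (-1.08). F8 (-0.58) and Vwf (-0.58), which endothelial cells make, were lower there as well, beside the lower endothelial marker sum given above, and the part of that sum was not tested. Serpinc1, the gene of antithrombin, was higher in Dhep liver (0.49) and lower in Dhep hepatocytes (-0.35).

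Of 26 measured other complement genes, 13 were higher and 2 lower in Dhep liver, and 13 higher and 6 lower in Dhep hepatocytes. Of all probes 13.1% were higher and 14.7% lower in liver, and 27.7% and 26.2% in hepatocytes. C1qb and C1qc, chains of C1q that macrophages make, were higher by 1.43 and 1.54 in liver and by 1.97 and 1.79 in hepatocytes. Cfp, the gene of properdin, was higher by 1.10 and 1.26, and Vsig4, a complement receptor of Kupffer cells, by 1.00 and 1.67. C1qb, C1qc and Vsig4 are themselves on the Kupffer cell list, so their agreement with that list was built in, and Cfp is not on it. Of that list 13 of 15 were higher and 1 lower in each preparation, and in hepatocytes the 1 lower marker passed at 2-fold. The part of those cells was not tested. C1s1, which encodes the protease C1s, was 1.06 higher in Dhep hepatocytes, while Colec11, a collectin gene, and Susd4 were lower (-1.31 and -1.14). Colec11 is itself on the stellate cell list. Of that stellate list 13 of 14 were lower in Dhep hepatocytes, and the part of those cells was not tested. Of the 5 genes of the vitamin K cycle, which serves the γ-carboxylation of the zymogens, Ggcx stood at 0.46 and Vkorc1 at -0.38 in Dhep against FF hepatocytes.

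Of 20 measured acute phase genes, 14 were higher and 0 lower in Dhep liver (median 0.32) and 11 higher and 2 lower in Dhep hepatocytes (0.31). In FF hepatocytes 17 were higher than in FF liver (0.39). Of all probes 13.1%, 27.7% and 20.9% were higher in these comparisons. All 15 measured interferon-γ response genes were higher in Dhep in both preparations, with medians of 1.69 and 2.79. Whether the members' differences are tied to either list was not tested.

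With the 4 RNA samples as the units, no member could be called. A model of preparation plus genotype on the 4 RNA means left 1 residual degree of freedom and called 0 of 31 members and 0 of 22859 probes (0%) by limma's adjusted p. At an unadjusted p under 0.05, 13 members passed for isolation, all higher in hepatocytes, where 4.27% of all probes were higher and 3.13% lower. The isolation effect had the same sign in all 31, with a median of 0.34. The largest were F7 at 0.79 ± 0.12 (SE, adjusted p = 0.664) and Hc at 0.71 ± 0.10 (adjusted p = 0.664). For genotype 2 of 31 passed unadjusted, Mbl2 higher (0.30) and C8g lower (-0.40), where 3.39% of probes were higher and 1.54% lower. With all arrays and the RNA sample as a random block (estimated correlation 0.566), 21 members were higher for isolation and 0 lower, and 2 higher and 1 lower for genotype.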

How the data were processed

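Values came from the authors' deposited table of raw, linear probe intensity. A further deposited table holds intensity that the authors normalized, by a method the sources used here do not give. BeadStudio is named in the submitters' processing notes, without a version. Raw columns were assigned to samples by the numbers in the sample descriptions, and each raw column correlated best with its own array in the normalized table.

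In limma 3.58.1 (R 4.3.3), the background was corrected by normexp with an offset of 50, and log2 values were quantile normalized. Probes above 6.06 log2 (66.7 linear), the median of probe means, on every array of at least 1 group were kept, 22859 of 45281. Of all probes, 34885 carried 1 symbol, 18 several and 10378 none. Means of the 4 groups were fitted with lmFit and eBayes, and p-values were adjusted by Benjamini-Hochberg over all kept probes. Calls required an adjusted p under 0.05, and a log2 difference of at least 1 where 2-fold is stated. A second fit used the RNA means. Alternatives changed the background correction, the scaling, the filter, the probe summary, the fold threshold, the variance prior, the block and the arrays included, and their effect is given in the closing section.

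The members, the lists and the alternatives were chosen with earlier results of these data known. All members are named by their brightest probe, and other probes are named where they differ by over 0.5 in log2 or in sign, though not every such value is printed. Other pathway genes are named where called at 2-fold, or by the largest differences in their list; F8, Vwf, Serpinc1, Ggcx and Vkorc1 were named after their values were seen. Replicate numbers did not pair arrays across groups. The number of arrays, and of mice, limits the precision. The fit was tested on simulated data. Promoter windows came from RefSeq, and figures from matplotlib 3.10.9 under Python 3.11.15.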

Additional observations from a re-analysis of the deposited data

Results flagged for a closer look

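For 14 members the genotype difference (Dhep minus FF) was not the same in hepatocytes as in liver, by the interaction term of the fit over all arrays (limma adjusted p under 0.05). The difference was lower in hepatocytes by log2 values of -0.91 for Masp2, -0.58 for F10, -0.57 for C6, -0.50 for Mbl1, -0.29 for C8g and -0.28 for Cfb. It was higher in hepatocytes for F9 (0.20), Plg (0.23), F7 (0.23), Masp1 (0.36), C9 (0.38), Klkb1 (0.44), Pros1 (0.45) and F5 (0.66). For Klkb1 and F5 the genotype differences were called in opposite directions in the 2 preparations. The 8 upward and 6 downward calls are 25.8% and 19.4% of the members, near the 23.9% and 21.2% of all probes. Under median scaling 5 of the downward values lost their calls, at -0.21 for F10, -0.059 for C6, -0.014 for Mbl1, 0.050 for C8g and 0.18 for Cfb. Of the upward values, F7, F9 and Plg were not called under all 4 scalings (0.090, 0.12 and 0.17 under cyclic loess). Other probes were called the other way for Plg (ILMN_2561360, -0.64), Masp1 (ILMN_1250116, -0.99) and Masp2 (ILMN_3027989, 0.32). Each interaction value compares 4 RNA samples and holds no spread between mice.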

How the results depend on the processing

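Calls are counts of members at an adjusted p under 0.05 unless a fold is named. Under median scaling, genotype calls in liver were 0 higher and 8 lower (against 7.23% and 25.0% of all probes). In hepatocytes 5 were lower (against 9.29%). Isolation calls in FF were 9 higher and 5 lower (against 7.51% and 47.9%). The interaction gave 20 higher and 1 lower (against 49.2% and 6.46%), 2 of them at 2-fold. Median scaling reversed the difference of F11 (-0.018) and Cfi (-0.019) in liver, of Cfb (0.034), Hc (0.0084) and C8a (0.12) between hepatocyte groups, of F2 (-0.092), F11 (-0.032), Klkb1 (-0.053), Mbl2 (-0.23) and Cfi (-0.031) for isolation in FF, and of Cfb (0.18) and C8g (0.050) for the interaction. The mean over kept probes gave 11 higher in liver (against 13.1% of all probes) and 1 lower for isolation in FF (against 26.9%). It gave 1 member at 2-fold in each of the hepatocyte genotype comparison and the interaction. It reversed Masp1 between hepatocyte groups (-0.26), for isolation in Dhep (-0.19) and for the interaction (-0.22), and C4b for isolation in FF (-0.16). Interaction calls were 10 lower with the authors' normalized table (against 22.6% of all probes), and 5 higher and 12 lower with cyclic loess (against 19.5% and 24.3%). At 2-fold no member was called. Without a fold threshold 9, 20, 24, 24 and 14 were called in liver genotype, hepatocyte genotype, FF isolation, Dhep isolation and the interaction. At 1.5-fold 3, 8, 4 and 2 were called in the last 4. The share of all probes at 1.5-fold is not given here, so these 1.5-fold counts have no background beside them. The random block, fitted over all arrays, gave 21 higher for isolation (against 7.1% of all probes), where the RNA means gave 0. For genotype the block gave 2 higher and 1 lower (against 4.82% and 3.53%), where the RNA means again gave 0. Leaving out each array gave 6 to 7 higher and 3 lower in liver, 10 to 11 and 7 to 10 in hepatocytes, 21 to 25 and 0 for isolation in FF, 22 to 24 and 1 in Dhep, and 6 to 8 and 5 to 10 for the interaction, with 0 at 2-fold throughout. The 10 came without FF liver array 3. Shares of all probes with an array left out are not given here either. With the replicate number as a block the counts were 6 and 3, 11 and 10, 25 and 0, 23 and 1, and 8 and 7, in the same order. The shares of all probes beside them were 13.1% and 14.7%, 27.7% and 26.2%, 20.9% and 27.1%, 21.5% and 20.5%, and 23.9% and 21.2%. Same-numbered arrays had correlations of -0.0495 to 0.0705, so the numbers were not taken as a pairing. The cause of these changes was not tested. Dim signal limits Fgb, and signal near the array maximum limits Kng1 and Fga.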
